A study of Mus musculus with 80 samples.

Results

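The genes described here are 60 splicing regulators and RNA-binding proteins of 11 families, taken by name from the 25160 genes listed in the table of single striatal neurons. The families are Srsf with 11 genes, Hnrnp with 20, Celf with 6, Elavl and Cpeb with 4 each, Rbfox, Ptbp, Mbnl and Khdrbs with 3 each, Nova with 2, and Qk alone. Pseudogenes were left out, and the rule itself used names and no measured value. The levels were compared between dopamine D1 and D2 receptor neurons of the dorsomedial striatum, the part of the striatum linked to action control.

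All cells came from adult mice heterozygous for both Drd1a-TdTomato and Drd2-EGFP, bacterial artificial chromosome reporters that carry a red and a green fluorescent protein under the control regions of the D1 and the D2 dopamine receptor gene. Single fluorescent cells were sorted by FACS into wells and amplified with the SMARTer Ultra Low Input kit, which copies polyadenylated RNA and has no molecular identifiers. There were 40 Drd1a-TdTomato cells, called D1 MSN (medium spiny neurons, the projection neurons of the striatum), and 40 Drd2-EGFP cells. The Drd2-EGFP reporter also labels cholinergic interneurons, and 2 cells sorted for it, each with more than 100 TPM of the acetylcholine-synthesis gene Chat, were kept apart as such, which left 38 D2 MSN. The mice had been injected under anesthesia with India ink and a Hoechst nuclear dye to mark the dorsomedial striatum, which held for all groups alike. The study states that its MSN came from 3 animals in 3 separate experiments. The labels give a plate and well for each cell but do not name the animal it came from. A group therefore counts as a single sample here, nothing was tested and no difference below has a replicate check. Most comparisons are given over all MSN and again within the 2 large plates, FACS051_5 (18 D1 and 16 D2 MSN) and FACS086_4 (21 and 19), whereas plate FACS086_9 held 1 and 3.

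Pre-mRNA splicing is steered by proteins that bind short motifs in exons and introns. SR proteins (Srsf) mostly promote the use of nearby splice sites and hnRNP proteins often oppose it, and both are made in nearly all cells. On top of these, neurons use tissue-restricted regulators, such as Rbfox, Nova, Ptbp2, neuronal Elavl and Celf proteins, that set the splicing of ion channels, receptors and synaptic adhesion proteins, while Cpeb proteins act in the cytoplasm on polyadenylation and translation of mRNA, also near synapses.

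The identity of the cells was checked first with marker genes. The summed TPM (transcripts scaled by gene length and cell total) of the 4 D1 MSN markers Drd1, Tac1, Pdyn and Isl1 had a median of 1188 in D1 MSN and 1.65 in D2 MSN, and that of the 4 D2 MSN markers Drd2, Adora2a, Penk and Gpr6 a median of 11.6 and 10848. Several cells stood apart. The D1-labelled cell in well D04 of FACS051_5, called D04 below, went against its label: its 7 MSN markers summed to 134 TPM against a D1 median of 3342, and the 5 listed astrocyte markers summed to 13896 TPM against 17.6 in the next D1 cell. The D1-labelled cell in well B02 of FACS086_4 had 648 genes above 1 TPM and an MSN marker sum of 3.53. The D1-labelled cell in well C06 of FACS051_5 had a D2 marker sum of 3682, against 499.8 in the next D1 cell. Nearly all of that sum was Penk (3676 TPM). No D1-labelled cell had more than 5.74 TPM of Drd2, 1.29 of Adora2a or 0.89 of Gpr6. Among D2-labelled cells, D1 markers summed to 1218 TPM in well A12 of FACS086_9, which had 1215 genes above 1 TPM, and to 1083 in the next, near the D1 median. Where leaving out one of the cells named here by well changed a call, the fold without it is given. So it is where such a cell held the highest value of a gene whose fold is given below. The D2-labelled cell with 1083 TPM was not singled out for such a check. TPM hold no read counts, so the depth behind each value is unknown, and a gene without signal is given as listed at 0.

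The 60 genes were found in many more cells than most genes. At more than 1 TPM, the limit used here for finding a gene in a cell, 39 of the 60 (65.0%) were found in at least 50% of the 78 MSN, against 13.7% of all listed genes. The share was also high in the other lists of RNA processing genes described at the end, with 61.8% of the core spliceosome, 82.4% of SR-related proteins and SR kinases and 56.7% of other RNA-binding proteins. Among genes that averaged at least 10 TPM over the MSN, the median share of MSN was 71.8% for the 51 regulators and 43.6% for all genes, and the median of their mean levels was 69.6 and 29.9 TPM. Celf2, a regulator of neuronal and heart exons, was the single member found in all 78 MSN. Srsf5, Hnrnpa2b1, Hnrnpk, Hnrnpl, Hnrnpu, Rbfox1 and Celf4 were found in at least 90%. At the other end, 9 genes were found in under 25% of the MSN, namely Srsf12, Ptbp1, Ptbp3, Elavl2, Elavl4, Celf3, Celf6, Cpeb1 and Cpeb3.

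**Figure D1:**
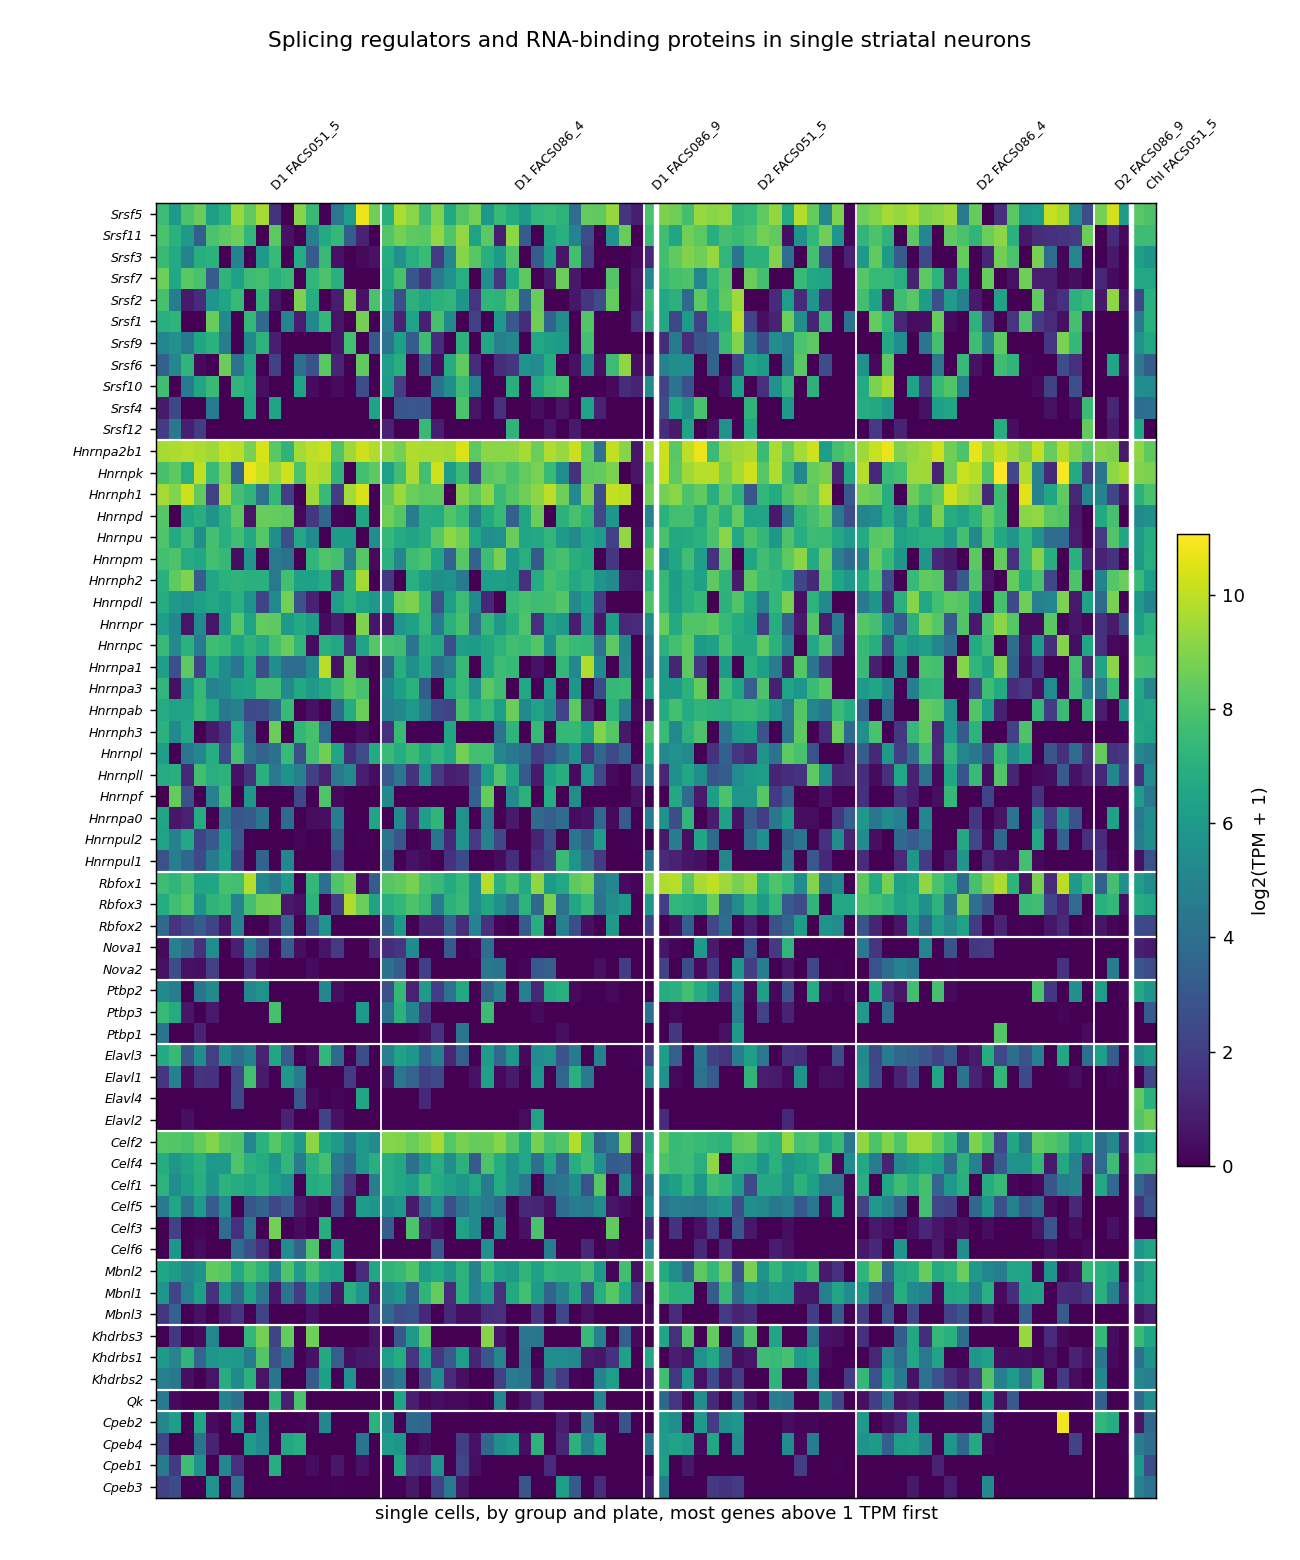
Level of each of the 60 genes (rows, by family and falling mean) in each of the 80 cells (columns, by group and plate), as log2(TPM + 1) in colour. Hnrnpa2b1, Hnrnpk, Srsf5 and Celf2 are bright in nearly every cell, the Nova, Ptbp and Cpeb rows are mostly dark, and Elavl2 and Elavl4 are bright in the 2 cholinergic interneurons (ChI) at the right.

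A D1 MSN held between 6 and 51 of the 60 genes above 1 TPM, with a median of 38.5, and a D2 MSN between 10 and 49, with a median of 35.5. The cells that held few of them held few genes altogether. All listed genes above 1 TPM numbered 648 to 8657 per D1 MSN (median 5722) and 1215 to 7942 per D2 MSN (median 4927.5), and over the 78 MSN the 2 numbers ran together with Pearson's r = 0.934 and Spearman's rho = 0.911, a description of cells that share plates and a depth that is not known. The order of the groups turned between plates. On FACS051_5, D1 MSN had a median of 37.5 regulators and 5109 genes and D2 MSN 40.5 and 5923, whereas on FACS086_4 the medians were 40 and 5730 in D1 MSN and 34 and 4617 in D2 MSN. The summed TPM of the 60 genes had a median of 5349 in D1 MSN (17.1, in the D1-labelled cell of well B02, to 8657) and of 6018 in D2 MSN (901 to 9190), and the ranges overlapped nearly throughout.

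**Figure D2:**
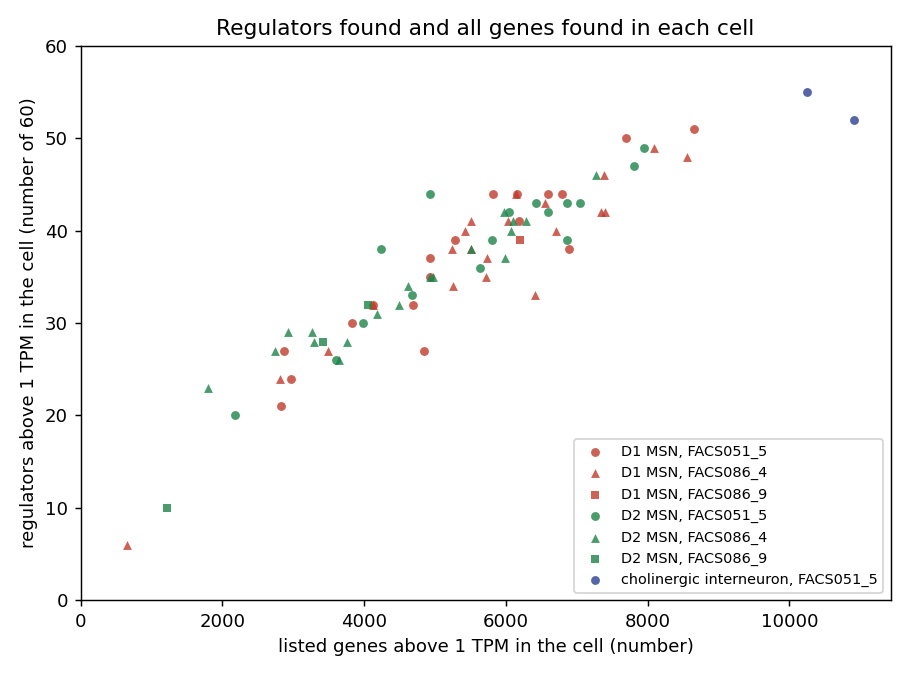
Number of the 60 genes above 1 TPM (vertical axis) against the number of all listed genes above 1 TPM (horizontal axis) in each cell, coloured by group and shaped by plate. The points lie along a single rising band for D1 and D2 MSN, and the 2 cholinergic interneurons, with 52 and 55 of the genes, lie at its upper end.

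Folds below are log2 ratios of group means, D1 to D2 MSN, each mean raised by a pseudocount of 1 TPM. For 51 of the 60 genes the mean over the MSN was at least 10 TPM, and their median log2 fold was -0.0024, against 0.01 for all 7500 genes that passed the same limit. Above a log2 fold of 1, toward D1 MSN, lay 2 regulators, Celf3 and Ptbp3 (3.92%), against 11.7% of all genes. Below -1, toward D2 MSN, lay 3, Cpeb2, Ptbp2 and Srsf12 (5.88%), against 8.85%. Celf3 and Ptbp3 were also above 1 on each large plate (all genes 3.64%, or 8.39% where only the direction had to hold on both). Of the 3 on the D2 side none was below -1 on both plates (all genes 3.29%), and Ptbp2 and Srsf12 kept their direction on both (all genes 6.51%). Within 1 of 0 over all MSN and on both large plates lay 33 of the 51 regulators (64.7%), against 45.7% of all genes. In the other lists of RNA processing genes it was 57.6% of the core spliceosome, 68.75% of SR-related proteins and SR kinases and 68% of other RNA-binding proteins. The sign of the fold was the same on both large plates for 26 of the 51, close to the 49.9% of all genes. For all 60 genes the values of single D1 MSN and single D2 MSN overlapped, as they did for every listed gene.

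**Figure D3:**
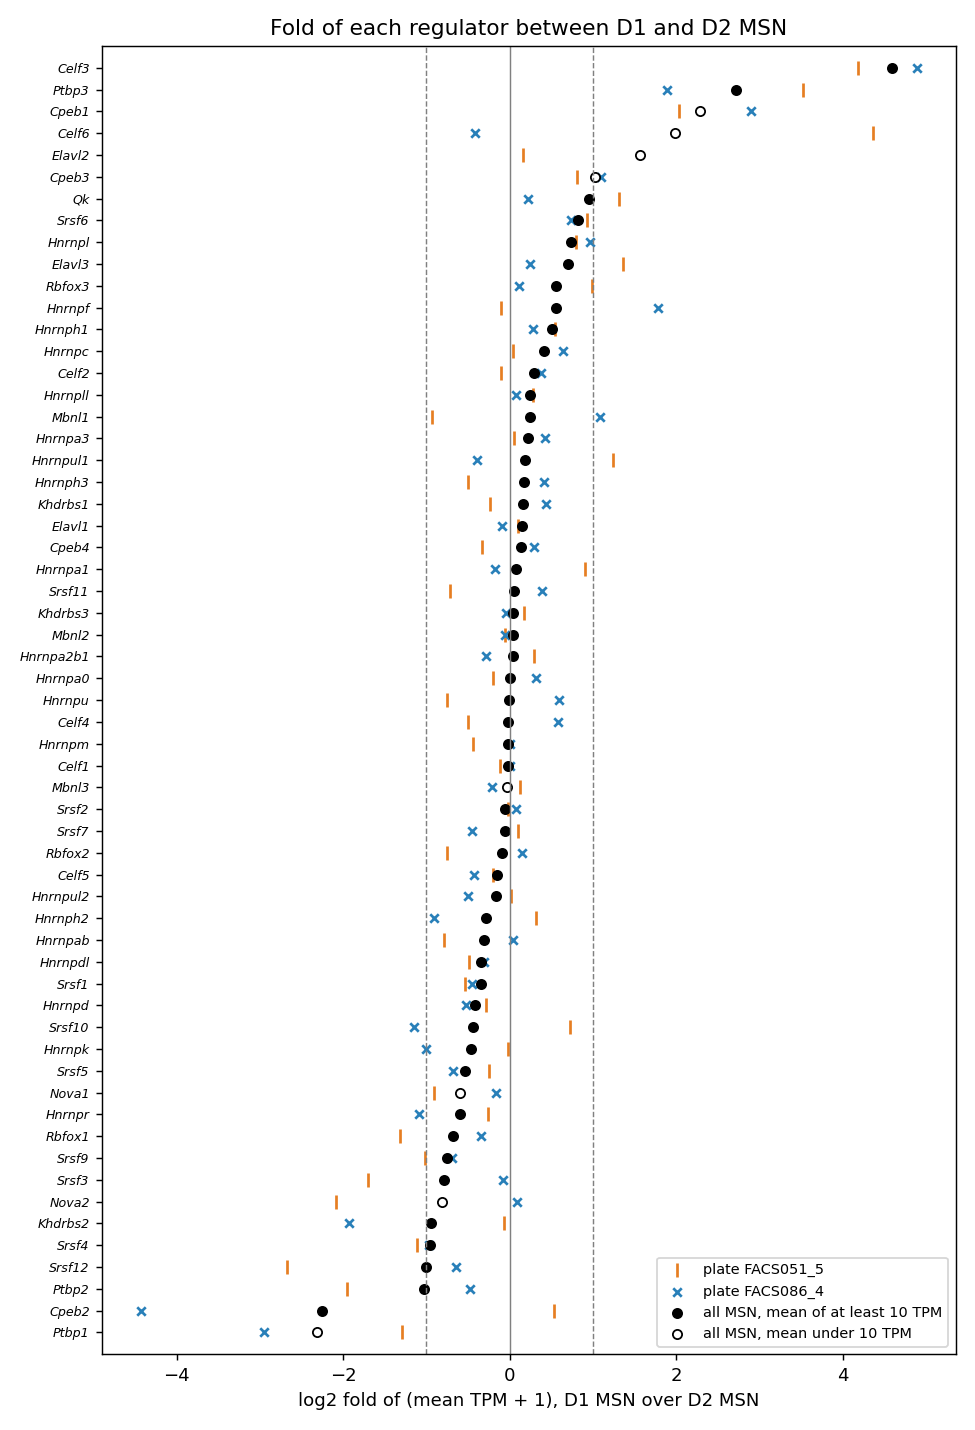
Log2 fold of (mean TPM + 1) in D1 MSN over D2 MSN for the 59 genes with a fold (circles, open where the mean was under 10 TPM), with the same fold on plate FACS051_5 (bars) and FACS086_4 (crosses), and dashed lines at -1 and 1. Most circles lie between the dashed lines. Celf3, Ptbp3 and Cpeb1 lie above 1 on both plates, and Ptbp1 lies below -1 on both. For many genes the plates lie on opposite sides of 0, among them Celf6 and Cpeb2.

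The SR proteins were led by Srsf5, found in 37 of 40 D1 MSN and 36 of 38 D2 MSN. Its TPM ran from 0 to 1721 in D1 MSN with a median of 174, and from 0 to 1307 in D2 MSN with a median of 398. The D2 cells tended to lie higher within a shared range, with a log2 fold of -0.54 (-0.25 on FACS051_5 and -0.68 on FACS086_4). The highest D1 value was that of the cell in well C06 of FACS051_5, and the fold was -0.74 without it. Srsf5 held 28.0% of the family's summed mean TPM in D1 MSN and 32.6% in D2 MSN, and it was the highest family member in 16 D1 and 22 D2 cells. Next came Srsf11, a cofactor in the splicing of neuronal microexons, with a median of 116 TPM in D1 MSN and 148 in D2 MSN (log2 fold 0.05, but -0.71 on FACS051_5 and 0.39 on FACS086_4). Srsf3 and Srsf7, which also link splicing to mRNA export, had folds of -0.79 (-1.71 and -0.08 on the plates) and -0.05 (0.10 and -0.45). Srsf2, an SR protein that stays in the nucleus, had -0.05 (-0.02 and 0.08), and -0.19 without cell D04, which held its highest D1 value.

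Srsf12, an atypical SR protein known to oppose other SR proteins, was found in 6 of 40 D1 MSN and 8 of 38 D2 MSN. The highest D1 cell had 172 TPM and the highest D2 cell 338, with medians of 0 in both groups, so a few cells set both means (8.63 and 18.3 TPM). Its log2 fold was -1.003 (-2.67 and -0.64 on the plates), and -0.97 without cell D04, or without B02 or C06 of the D1 cells. The highest D2 cell, well D12 of FACS086_4, had 1802 genes above 1 TPM, and without it the fold of Srsf12 was -0.15, as it was with only cells of at least 2000 genes. The remaining 10 SR proteins all lay within a log2 fold of 1 over all MSN. On single plates Srsf3, Srsf4 and Srsf9 lay below -1 on FACS051_5 and Srsf10 on FACS086_4.

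Of the 20 Hnrnp genes, all averaged at least 10 TPM and, over all MSN, all lay between -0.59 and 0.74 on the log2 scale. On single plates some passed it, with Hnrnpul1 above 1 on FACS051_5, and Hnrnpf above 1 and Hnrnpk and Hnrnpr below -1 on FACS086_4. Hnrnpa2b1, which also carries mRNA into dendrites, had the highest mean of the 60 genes. It ran from 0.56 to 1403 TPM in D1 MSN (median 749) and from 0.68 to 1720 in D2 MSN (median 639.8). The lowest values were those of the D1-labelled cell B02 of FACS086_4 and the D2-labelled cell A12 of FACS086_9. The next lowest were 17.1 and 69.1 TPM. Both groups filled the same range, and the fold of 0.04 was 0.29 on one large plate and -0.29 on the other. Hnrnpk, which binds C-rich RNA, ran from 0 to 1674 TPM in D1 MSN (median 267) and from 1.08 to 2126 in D2 MSN (median 409). It was found in 37 of 40 D1 cells and all 38 D2 cells, with a log2 fold of -0.46 (-0.023 and -1.0007 on the plates). Hnrnph1, which binds runs of G, had medians of 325 and 201 TPM (log2 fold 0.50, with 0.54 and 0.28 on the plates and 0.42 without that C06 cell). Hnrnpd, a factor in the decay of mRNA with AU-rich elements, had -0.42 (-0.29 and -0.53 on the plates). Hnrnpu, a nuclear scaffold protein, had -0.0024, which was -0.75 on FACS051_5 and 0.59 on FACS086_4. Hnrnph1 and Hnrnph2 encode closely similar proteins and several Hnrnp genes have processed pseudogenes, though no sequences were compared here. How reads that map to several places were counted is not given in the sources used here, so the split between such copies is uncertain.

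A few genes passed a difference of 1 on another scale, and they are named after their values were seen. Hnrnpc, with means of 127 and 94.9 TPM (log2 fold 0.42), was present in 95.0% of D1 MSN (38 of 40, 95% interval 83.1 to 99.4%) against 78.9% of D2 MSN (30 of 38, 62.7 to 90.4%). These exact Clopper-Pearson intervals cover counting error only, as do all those below. Hnrnpc was above 10 TPM in 36 D1 and 27 D2 cells and listed at 0 in 1 and 3. With the mean of log2(TPM + 1) over cells in place of the mean TPM, which gives more weight to cells with and without a gene, the differences were 1.37 for Hnrnpc, 1.34 for Hnrnpl and 1.04 for Khdrbs1 toward D1 MSN, and -1.02 for Hnrnpd toward D2 MSN. The share of all genes past 1 on this scale was not computed, so these differences have no background beside them. D1 MSN also had more genes above 1 TPM per cell over all plates, as given above, and the part of that in these values was not tested.

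Rbfox1 and Rbfox3 carried nearly all of the Rbfox signal. Rbfox1 (chr16:5885355-7411526, plus strand, GRCm38) ran from 0 to 897 TPM in D1 MSN with a median of 153, and from 0 to 1027 in D2 MSN with a median of 224. The ranges overlapped, with the D2 cells higher on average on both large plates (log2 fold -0.68 over all, -1.32 on FACS051_5 and -0.35 on FACS086_4). Rbfox3 (chr11:118489762-118911597, minus strand), whose product is the neuronal marker NeuN, ran the other way, from 0 to 854 TPM in D1 MSN (median 104) and from 0 to 445 in D2 MSN (median 88.6). Its log2 fold was 0.56, or 0.996 and 0.11 on the plates. Rbfox2, the more widely made paralog, averaged 11.8 TPM in D1 MSN and 12.7 in D2 MSN (log2 fold -0.09, with -0.75 and 0.15 on the plates).

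Set against each other within a group, Rbfox1 exceeded Rbfox3 by 0.50 on the log2 scale in D1 MSN and by 1.74 in D2 MSN, a difference of 1.24 between the groups. The difference was 2.31 on FACS051_5 and 0.46 on FACS086_4. Cell by cell, Rbfox1 was above Rbfox3 in 25 of 40 D1 MSN and in 29 of 38 D2 MSN. On FACS051_5 these were 9 of 18 and 14 of 16 cells, and on FACS086_4 15 of 21 and 13 of 19, so the shares lay apart on FACS051_5 and close together on FACS086_4. On FACS051_5 Rbfox3 held the larger share of the summed mean Rbfox TPM of D1 MSN (52.1%), and on FACS086_4 Rbfox1 did (64.3%).

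The Nova proteins, which bind clusters of YCAY motifs and set the splicing of synaptic proteins, were low. Nova1 was found in 14 of 40 D1 and 10 of 38 D2 MSN, with highest values of 39.6 and 152 TPM and medians of 0. Nova2 was found in 11 and 13 cells, with highest values of 20.6 and 53.1 TPM. Their means were under 10 TPM, neither gene was above 1 TPM in 21 D1 and 17 D2 MSN, and which of the pair had the larger mean turned between the plates.

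The Ptbp genes had folds on both sides of 0. Ptbp1, the repressor of neuronal exons in progenitors and most non-neuronal cells, was found in 4 of 40 D1 MSN and 3 of 38 D2 MSN. The highest D1 cell had 19.2 TPM, and in D2 MSN a single cell had 280 TPM and the next 62.7, with all other D2 MSN at 2.45 or less. The D2 mean of 9.10 TPM against 1.03 in D1 MSN thus rested on 2 cells, and the mean over the MSN was under 10 TPM. The log2 fold of Ptbp1 was -2.31 (-1.29 and -2.95 on the plates), and -0.83 without the highest cell of each group. Exons of Ptbp1 overlap genes on the other strand, among them Plppr3, whose mean was 10.2 TPM in D1 and 14.7 in D2 MSN. The kit does not mark strand, so reads of overlapping exons cannot be told apart.

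Ptbp2 (chr3:119718742-119784466, minus strand), the neuronal paralog, was found in 20 of 40 D1 and 18 of 38 D2 MSN. It ran from 0 to 165 TPM in D1 MSN (median 0.68, mean 22.1) and from 0 to 241 in D2 MSN (median 0.38, mean 46.0). The ranges overlapped, and the shares of cells ran opposite ways on the plates, with 7 of 18 D1 and 10 of 16 D2 MSN on FACS051_5 and 13 of 21 and 7 of 19 on FACS086_4. Over all MSN the log2 fold came to -1.02 (-1.95 and -0.48 on the plates), and to -0.99 without cell D04, or without B02 or C06 of the D1 cells.

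Ptbp3 (chr4:59471868-59549364, minus strand), best known from blood cells, was present in 25.0% of D1 MSN (10 of 40, interval 12.7 to 41.2%) against 13.2% of D2 MSN (5 of 38, 4.41 to 28.1%). By plate these were 4 of 18 and 3 of 16 cells on FACS051_5 and 5 of 21 and 2 of 19 on FACS086_4. In D1 MSN it ran from 0 to 226 TPM with a median of 0 and a mean of 24.3, and in D2 MSN from 0 to 62.5 with a median of 0 and a mean of 2.84. Most cells of both groups had none, and 9 D1 against 3 D2 cells were above 10 TPM. Over all MSN the log2 fold came to 2.72 (3.52 and 1.89 on the plates), and to 3.18 without the highest cell of each group. In D1 MSN, Ptbp3 held 51.2% of the family's summed mean TPM and Ptbp2 46.6%, yet Ptbp2 was the highest of the family in 15 D1 cells and Ptbp3 in 8. In D2 MSN, Ptbp2 held 79.4%.

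Celf3 had the largest fold of the 60 genes. Celf3 (chr3:94478295-94492198, plus strand) belongs to the brain-enriched Celf proteins. In D1 MSN it ran from 0 to 422 TPM with a median of 0 and a mean of 38.9, and in D2 MSN from 0 to 6.49 with a median of 0 and a mean of 0.66. It was present in 35.0% of D1 MSN (14 of 40, interval 20.6 to 51.7%) against 13.2% of D2 MSN (5 of 38, 4.41 to 28.1%). Above 10 TPM were 10 D1 cells and 0 D2 cells, while 21 of 40 D1 and 20 of 38 D2 cells were listed at 0. The groups thus overlapped at the low end only, and the shares of cells with any signal were close.

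The log2 fold of Celf3 came to 4.59 (4.19 and 4.89 on the plates), and to 4.33 without the highest cell of each group. On FACS051_5, where D2 MSN had the more genes per cell, it was found in 6 of 18 D1 and 3 of 16 D2 MSN with means of 32.1 and 0.82 TPM. On FACS086_4 it was found in 7 of 21 and 2 of 19, with means of 46.5 and 0.60. Exons of Celf3 overlap Riiad1 on the other strand, which averaged 1.51 TPM in D1 MSN and 1.49 in D2 MSN.

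The other Celf genes differed little or not on both plates. Celf2 ran from 1.27 to 872 TPM in D1 MSN (median 274) and from 1.16 to 668 in D2 MSN (median 191), a log2 fold of 0.29 (-0.11 and 0.38 on the plates), and held 55.0% and 55.3% of the family's summed mean TPM. Celf4, another brain-enriched paralog, came next with means of 89.7 and 91.0 TPM (log2 fold -0.02, with -0.50 and 0.59 on the plates). Celf1, the widely made paralog, had means of 69.0 and 70.2 TPM (log2 fold -0.02, with -0.12 and 0.0057 on the plates). Celf5, also brain-enriched, had 20.4 and 22.8 TPM (log2 fold -0.15, with -0.20 and -0.43). Celf6 was found in 13 of 40 D1 and 5 of 38 D2 MSN, with highest values of 259 and 53.6 TPM. Its mean over the MSN was under 10 TPM, and its log2 fold of 1.98 was 4.36 on FACS051_5 and -0.42 on FACS086_4, where the direction turned.

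**Figure D4:**
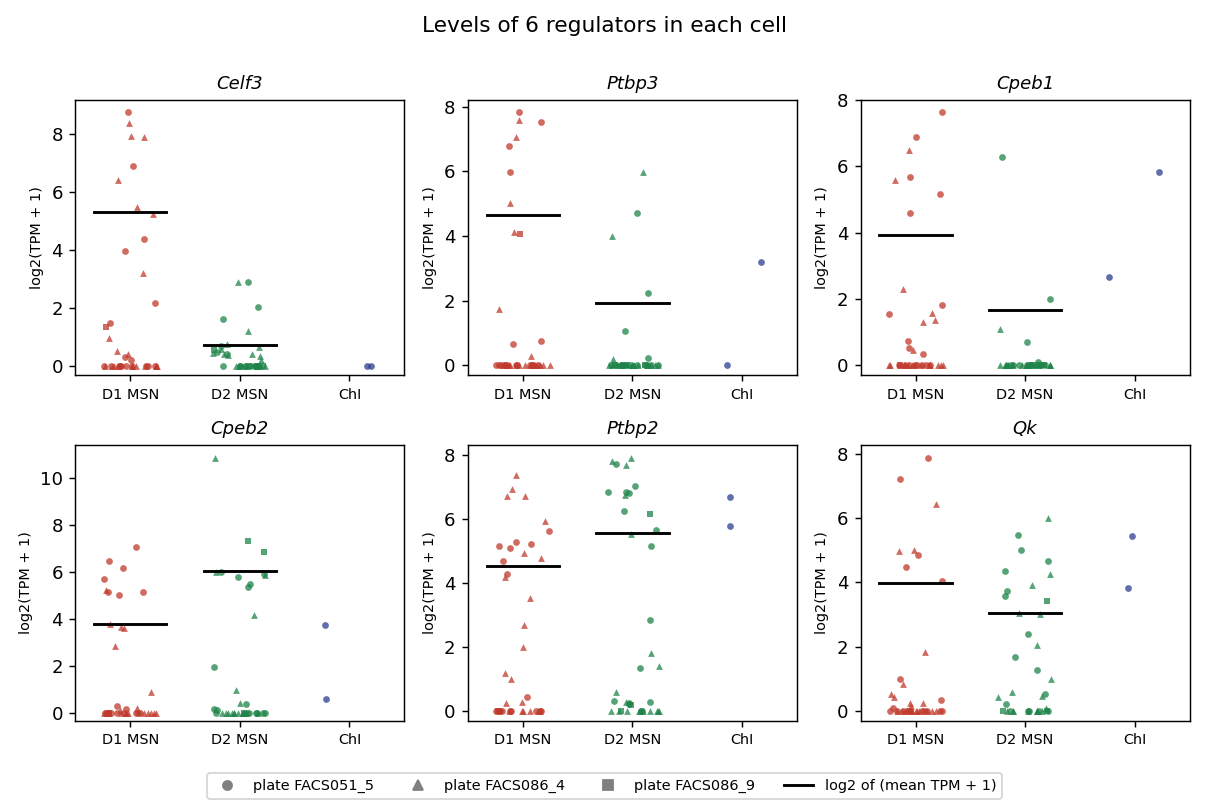
Levels of Celf3, Ptbp3, Cpeb1, Cpeb2, Ptbp2 and Qk in each D1 MSN, D2 MSN and cholinergic interneuron (ChI), as log2(TPM + 1), with markers for the plates and a line at the log2 of the group's mean TPM plus 1. Of the D1 MSN, 10 exceed 10 TPM of Celf3 and of the D2 MSN 0, while a single D2 MSN at 1814 TPM stands above all others for Cpeb2.

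Of the Cpeb proteins, Cpeb1 (chr7:81347026-81455465, minus strand) binds the cytoplasmic polyadenylation element and controls translation at synapses. It was present in 32.5% of D1 MSN (13 of 40, interval 18.6 to 49.1%) against 7.89% of D2 MSN (3 of 38, 1.66 to 21.4%), and above 10 TPM in 7 and 1 cells. On FACS051_5 it was in 7 of 18 and 2 of 16 cells, and on FACS086_4 in 6 of 21 and 1 of 19. It reached 197 TPM in D1 MSN and 76.5 in the highest D2 cell, where the next had 3.02, and the medians were 0. Without the highest cell of each group its log2 fold rose from 2.29 to 3.23, and it was 2.04 on FACS051_5 and 2.91 on FACS086_4. Its mean over the MSN was 8.39 TPM, under the limit of 10 TPM, so Cpeb1 is not among the genes counted as past the fold.

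Cpeb2 (chr5:43233170-43289724, plus strand), a translational regulator, had a mean that rested on 1 D2 cell. It was found in 12 of 40 D1 and 13 of 38 D2 MSN, from 0 to 131 TPM (median 0) and from 0 to 1814 TPM (median 0). The cell with 1814 TPM, in well C06 of FACS086_4, had 2923 genes above 1 TPM, and the next D2 cell had 156 TPM. The log2 fold was -2.25 over all MSN, -4.43 on FACS086_4, 0.53 on FACS051_5 and -0.81 without the highest cell of each group. Cpeb3 was found in 10 and 5 cells with means of 4.77 and 1.84 TPM, and Cpeb4, a paralog of the same subfamily, in 20 and 17 cells with means of 25.8 and 23.4 TPM (log2 fold 0.14, with -0.33 and 0.29 on the plates).

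Celf3, Ptbp3 and Cpeb1 were not found in a single set of D1 cells. Celf3 and Ptbp3 were both above 1 TPM in 5 D1 MSN, Celf3 and Cpeb1 in 6, Ptbp3 and Cpeb1 in 6, all 3 genes in 3, and at least 1 of them in 23 of 40. The cell in well C07 of FACS051_5 had the highest D1 value of both Celf3 and Ptbp3. It had 4930 genes above 1 TPM, within the range of the other D1 cells.

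Among the Elavl (Hu) proteins, which bind AU-rich elements and stabilise mRNA, Elavl3 led in the MSN. It ran from 0 to 177 TPM in D1 MSN (median 11.5) and from 0 to 113 in D2 MSN (median 6.11), found in 30 of 40 and 28 of 38 cells. Its log2 fold came to 0.70 (1.36 and 0.24 on the plates). Elavl1 (HuR), the paralog made in nearly all tissues, was found in 19 and 14 cells with means of 17.7 and 15.8 TPM (log2 fold 0.15, with 0.11 and -0.09 on the plates). Elavl2 was found in 3 D1 and 2 D2 MSN and Elavl4 in 4 D1 MSN, while Elavl4 was listed at 0 in all 38 D2 MSN.

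The 2 cholinergic interneurons had another set of Elavl genes. Elavl2 (chr4:91250763-91400785, minus strand) was 275 and 405 TPM in the interneurons of wells A08 and B02 of FACS051_5, against at most 81.2 TPM in any MSN. Elavl4 (chr4:110203722-110351909, minus strand) was 322 and 133 TPM there, against at most 92.4 in any MSN. That highest MSN value was of the D1-labelled cell in well C06 of FACS051_5, which also had high Penk. Every other MSN had at most 6.94. Both interneurons thus lay above every MSN for Elavl2 and Elavl4, and this was so for 2 of the 60 genes (3.33%) and for 1.09% of all genes. The summed TPM of the 4 Elavl genes was 638 and 610 in the interneurons, while the summed means were 52.3 in D1 MSN and 33.9 in D2 MSN. The interneurons had 10912 and 10251 genes above 1 TPM, more than any MSN, and cholinergic markers summing to 2303 and 3014 TPM, against at most 14.7 in any MSN. As the interneurons are 2 cells of 1 plate, these are values of those cells.

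**Figure D5:**
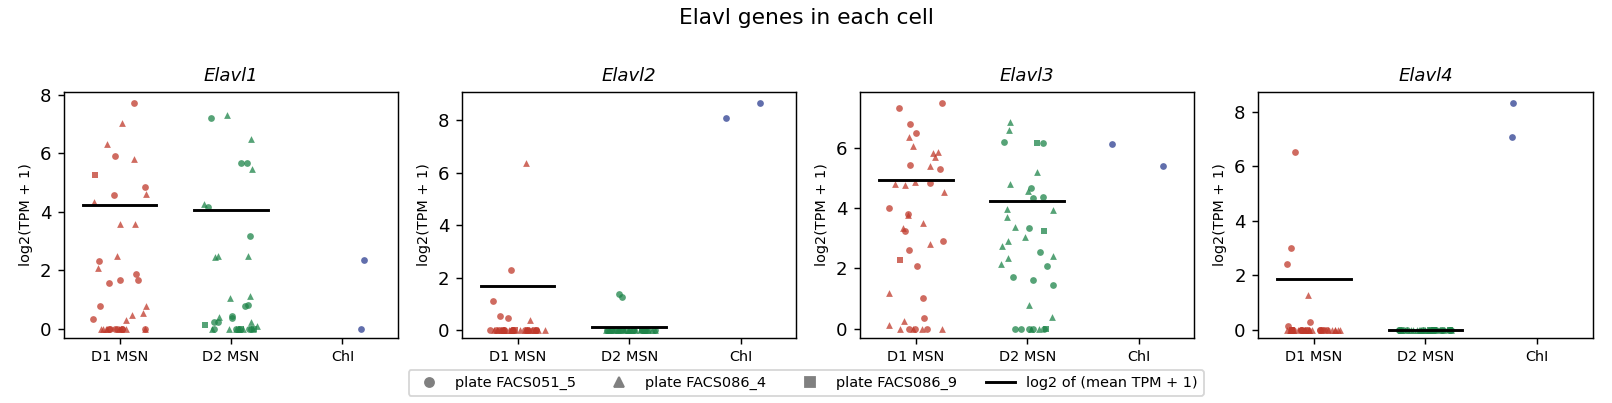
Levels of Elavl1, Elavl2, Elavl3 and Elavl4 in each D1 MSN, D2 MSN and cholinergic interneuron (ChI), as log2(TPM + 1), with markers for the plates and a line at the log2 of the group's mean TPM plus 1. Elavl2 and Elavl4 are at or near 0 in nearly all MSN and above every MSN in both interneurons, whereas Elavl3 of the interneurons lies within the range of the MSN.

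Other families were also built differently in the interneurons. Celf4 held 56.5% of their summed mean Celf TPM and Celf2 20.7%, against 55.0% and 55.3% for Celf2 in D1 and D2 MSN. Rbfox3 was above Rbfox1 in both, with 113 and 95.1 TPM against 73.3 and 39.9. Celf3 and Ptbp1 were listed at 0 in both, Nova2 was above Nova1 in both, and Ptbp2 had 104 and 54.3 TPM. Cpeb1 had 55.8 and 5.33 TPM. Single MSN with the same order of paralogs were also present, for instance 13 D1 MSN in which Rbfox3 was the highest of its family.

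The Mbnl proteins, which favour adult exon choices and are trapped by CUG repeats in myotonic dystrophy, differed little between the groups. Mbnl2 ran from 0 to 326 TPM in D1 MSN (median 101) and to 438 in D2 MSN (median 89.1), a log2 fold of 0.04 (-0.05 on each large plate), and it held 65.9% and 68.9% of the family. Mbnl1 had means of 61.8 and 51.9 TPM, and its fold of 0.25 was -0.93 on FACS051_5 and 1.09 on FACS086_4. Mbnl3 averaged 1.53 and 1.58 TPM.

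The Khdrbs (Sam68-like) proteins, which set the alternative splicing of neurexins, had folds of 0.16 for Khdrbs1 (-0.23 and 0.44 on the plates), -0.95 for Khdrbs2 and 0.05 for Khdrbs3 (0.17 and -0.05). Khdrbs3 held the largest share of the family's mean, 52.3% in D1 MSN and 46.1% in D2 MSN, but was found in only 16 of 40 and 18 of 38 cells. Khdrbs1 was present in 75.0% of D1 MSN (30 of 40, interval 58.8 to 87.3%) against 47.4% of D2 MSN (18 of 38, 30.98 to 64.2%), which was 13 of 18 against 8 of 16 cells on FACS051_5 and 16 of 21 against 9 of 19 on FACS086_4. The gap depended on the limit, as Khdrbs1 was above 10 TPM in 22 D1 and 16 D2 cells and listed at 0 in 4 and 8. It was the highest of the family in 19 D1 and 10 D2 cells. Khdrbs2 led in 7 D1 and 12 D2 cells, and its fold was -0.07 on FACS051_5 and -1.93 on FACS086_4.

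Qk (quaking), a splicing and RNA stability factor with a large part in glia, was present in 22.5% of D1 MSN (9 of 40, interval 10.8 to 38.5%) against 42.1% of D2 MSN (16 of 38, 26.3 to 59.2%). It ran from 0 to 233 TPM in D1 MSN (median 0, mean 14.9) and from 0 to 63.3 in D2 MSN (median 0.42, mean 7.24), so the mean was higher in D1 MSN while more D2 cells had the gene. Qk was found in 5 of 18 D1 and 9 of 16 D2 MSN on FACS051_5 and in 4 of 21 and 6 of 19 on FACS086_4, and its folds there were 1.31 and 0.22. The highest D1 value, 233 TPM, was that of cell D04, which held the 5 listed astrocyte markers Aqp4, Gja1, Slc1a2, Slc1a3 and Aldoc. Without this cell the D1 mean was 9.35 TPM and the log2 fold 0.33 in place of 0.95, and the difference of mean log2(TPM + 1) over all MSN was -0.35, toward D2 MSN. The summed astrocyte markers ran from 0 to 13896 TPM in D1 MSN (median 1.36) and from 0 to 225 in D2 MSN (median 0.58), and the 5 listed oligodendrocyte markers from 0 to 348, again in cell D04, and from 0 to 107. In cell D04 the oligodendrocyte markers Mag and Mobp were at 0. Their part in the Qk levels of other cells was not tested.

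Other genes of RNA processing, from lists outside the name rule, were compared in the same way. Of 34 listed genes of the core spliceosome, 33 averaged at least 10 TPM, with a median log2 fold of -0.16. Prpf3, of the tri-snRNP, lay above 1 (2.49) and Snrpe, a core Sm protein, below -1 (-1.80), the latter with -1.82 and -1.95 on the plates and 20 of 40 D1 against 29 of 38 D2 MSN. Of 16 SR-related proteins and SR kinases past the limit, Clk2, a kinase that phosphorylates SR proteins, lay above 1 (2.04). Of 25 other RNA-binding proteins, Pcbp3 lay above 1 (1.66), and Pcbp4 (-2.02) and the paraspeckle protein Pspc1 (-2.59) lay below -1. These are 3.03%, 6.25% and 4% of each list toward D1 MSN and 3.03%, 0% and 8% toward D2 MSN, beside the 11.7% and 8.85% of all genes given above. None of these genes had values that separated single D1 from single D2 MSN. Pcbp4 was found in 7 D1 and 6 D2 MSN. Pspc1 was found in 9 and 12, with a highest D2 value of 1157 TPM beside a D2 mean of 50.1. On FACS051_5 and FACS086_4, the folds were 2.07 and 3.68 for Prpf3, 2.10 and 1.82 for Clk2, and 0.87 and 3.16 for Pcbp3. They were -1.44 and -2.32 for Pcbp4 and -2.29 and -2.90 for Pspc1.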

How the data were processed

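The labels describe single cells of adult dorsomedial striatum with a reporter, plate, well and fluorescence each. Per the labels and methods, the authors used bcl2fastq 2.18, STAR 2.5.0, the mouse genome mm10/GRCm38 and featureCounts 1.5.1, and deposited TPM per gene and cell. How the TPM were made is not given in the sources used here. The TPM of the listed genes summed to 506588 to 958040 per cell, and 0 columns were identical. All 80 cells were kept, since the cells that the study found not usable are not named.

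The 60 members and the other gene lists were chosen with earlier results of these data known. A gene was counted in a cell above 1 TPM, with exact Clopper-Pearson 95% intervals. The log2 fold was taken between group means with a pseudocount of 1 TPM, and none was taken where every cell of a group had 0, as for Elavl4. Calls required 10 TPM or more on average across the 78 MSN and a log2 fold above 1 or below -1, with all genes as background. As the labels name no animal, each group is 1 sample and no p-value was computed. Named were all members of the small families, the 5 Srsf and the 5 Hnrnp genes with the highest mean, and members past the fold with the same direction on both large plates. Others are named after their values were seen. Positions came from GENCODE M21 (GRCm38), in which all 60 were found. Exons of 21 overlap a gene on the other strand and of 5 a gene on the same strand. The fold was tested on these MSN put at random into groups, with some genes raised by a known fold. Alternatives changed the pseudocount, the mean, the scaling, the cells, the plates and the limits, and 6, all leaving out single cells, were added after seeing the data. Scripts ran in Python 3.11.15 with scipy 1.17.1, pandas 2.3.3, numpy 2.4.6 and, for plots, matplotlib 3.10.9.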

Additional observations from a re-analysis of the deposited data

How the results depend on the processing

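The share of all genes past the fold was computed for the main setting only, so the counts under the alternatives have none beside them. Toward D1 MSN 2 regulators lay past the fold. The number was 5 with the difference of mean log2 values, 6 on plate FACS051_5 alone, 4 on FACS086_4 alone, 4 with only cells of at least 4000 genes, 6 with no limit on the mean and 0 at a mean of at least 50 TPM. Toward D2 MSN it was 3, and 1 with the difference of mean log2 values, 1 with a pseudocount of 10 TPM, 5 on FACS051_5 alone, 5 on FACS086_4 alone, 1 without the D1-labelled cell D04 of FACS051_5, 0 at a mean of at least 50 TPM and 1 without D04 and the D1-labelled cell B02 of FACS086_4 (the last chosen after seeing the data). It was also 1 without that B02 alone and 1 without the D1-labelled cell C06 of FACS051_5, both likewise added, since Srsf12 and Ptbp2 lay just past the fold. Celf3 (1.44 to 5.69), Ptbp3 (1.0006 to 3.52) and Cpeb1 (1.002 to 3.23) kept a log2 fold above 1 under all 17 alternatives for single genes.

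The median log2 fold of -0.0024 became 0.10 with the difference of mean log2 values, -0.065 on FACS051_5 alone, -0.050 without FACS086_9, -0.14 with only cells of at least 4000 genes, 0.038 without the highest cell of each group and 0.047 without these D04 and B02 cells, 0.034 without B02 alone and -0.033 without the D2-labelled cell A12 of FACS086_9, the last 4 added after seeing the data. Among genes with a log2 fold past 1 in size, the direction turned for Elavl2 with the cholinergic interneurons kept among the D2 cells (-2.51), for Celf6 on FACS086_4 alone (-0.42) and for Cpeb2 on FACS051_5 alone (0.53). Found in at least 50% of the MSN were 39 to 45 genes under the alternatives for cells and for a limit above 0 TPM, and 27 above 10 TPM. The leading paralog changed on a large plate or by shares of single cells in the Rbfox, Nova, Ptbp, Elavl, Khdrbs and Cpeb families. Of all 59 folds, most of them near 0, 35 had the other sign under at least 1 alternative and 24 kept theirs. No paired analysis was possible because the replicate numbers only name cells in accession order and pair none, and the plates that the groups share are given as separate values. The unknown depth, the single sample per group and the many zeros limit all values of genes found in few cells, and the causes of the changes were not tested.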
